A study of Mus musculus with 3 samples.

Results

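The cytosolic ribosomal protein genes were taken as every mouse gene whose symbol names a protein of the small subunit (Rps), the large subunit (Rpl), the stalk (Rplp0, Rplp1, Rplp2) or Rpsa, and that has at least 1 protein-coding transcript in the annotation. The rule gave 83 genes, out of 22015 nuclear protein-coding genes. Of the 83, 31 encode small-subunit proteins, 43 large-subunit proteins, 3 stalk proteins and 6 paralogues (Rpl3l, Rpl7l1, Rpl10l, Rpl22l1, Rpl39l, Rps27l). A further 6 symbols of the same form, among them Rps4l, had no protein-coding transcript and were left out. The material was the cytosolic fraction of bone marrow-derived macrophages from C57BL/6J mice, cells grown out of marrow into macrophages. They received Lipid A, the part of endotoxin that Toll-like receptor 4 binds, at 100 ng/ml for 12 h, had it washed out for 12 h and received 100 ng/ml again for 25 min. After ribosomal RNA had been depleted from total RNA, 3 libraries were sequenced, biological replicates 1 to 3, which carry the same donor entry, so their spread may be technical. All libraries belong to this 1 group, so no untreated cells could be compared and no p-value was computed. An exact sign flip over 3 libraries cannot go below 0.25.

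A ribosome joins ribosomal RNA with one copy of most of these proteins, and the small subunit reads the messenger RNA while the large subunit joins the amino acids. The messenger RNAs of ribosomal proteins are among the best known 5′ TOP messenger RNAs, which begin with a run of pyrimidines (C or U) through which the kinase mTOR controls their translation. The genes are also known for very many processed pseudogenes, copies of the spliced messenger RNA inserted elsewhere in the genome.

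The marrow-derived cells carried macrophage transcripts, with all 8 macrophage markers at or above 1 TPM (transcripts per 1000000, a level per length) in every library and Lyz2 at 3737 ± 895 TPM (SD, n = 3). Of 28 markers of other cell types, 2 reached a mean of 1 TPM, S100a8 and S100a9. Total expected counts were 55517261, 21311556 and 45635014 in replicates 1, 2 and 3. Nuclear RNAs were uneven between the libraries, with Malat1 at 1156, 976 and 246 TPM and Xist at 30.2, 2.27 and 1.01 TPM in replicates 1, 2 and 3. Per 1000000 nuclear protein-coding counts Malat1 had 8329, 3480 and 1444, so on that scale replicate 1 stood well above replicate 2 too.

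The letters around the annotated start are shown for members among the 10 most abundant. Of these 10, 8 had a window, 5 with a pyrimidine run as defined here and 3 without (Rpl41, Rps28 and Rpl10), while Rps29 and Rplp1 had none in the table. Rps24 and Rpl19 each have another annotated start without such a run, which is not shown. Each window holds the 15 bases before and the 15 after the RefSeq start (build GRCm38.p6), and capitals mark the longest run of C and T that overlaps the 5 bases on either side of the start, where that run has at least 8 bases. The run of Rpl13a continues past the end of its window.
Rps24 (chr14:24490663-24490692, plus strand): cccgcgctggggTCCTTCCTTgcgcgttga
Rpl19 (chr11:98026909-98026938, plus strand): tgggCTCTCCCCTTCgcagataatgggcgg
Rps27 (chr3:90213634-90213663, minus strand): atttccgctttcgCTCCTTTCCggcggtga
Rpl13a (chr7:45128731-45128760, minus strand): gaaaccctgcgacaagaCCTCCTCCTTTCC
Rps9 (chr7:3704026-3704055, plus strand): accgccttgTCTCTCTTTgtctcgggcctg
Rpl41 (chr10:128549154-128549183, minus strand): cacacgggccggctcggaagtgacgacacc
Rps28 (chr17:33824548-33824577, minus strand): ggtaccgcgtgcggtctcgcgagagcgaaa
Rpl10 (chrX:74270801-74270830, plus strand): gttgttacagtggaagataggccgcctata
Start windows were found for 63 of the 83 genes. A run of at least 8 bases was present in 24 of those 63 (38.1%), against 2962 of 27025 genes in the whole table (11.0%). An annotated start that lies some bases from the true one would miss a run, and this was not tested.

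**Figure D1:**
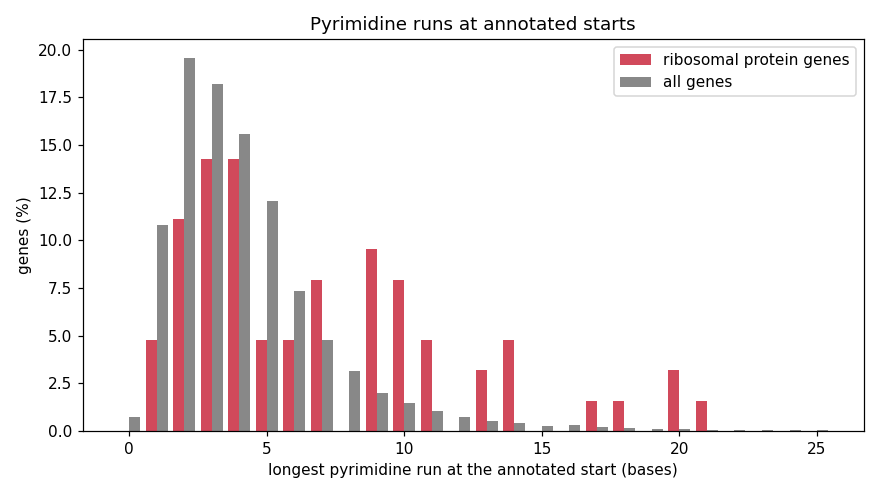
Share of genes (y axis, %) by the length in bases of the longest pyrimidine run at the annotated start (x axis, up to 25 bases), for 63 ribosomal protein genes and 27025 genes in all. The ribosomal protein genes reach 38.1% at 8 bases or more, against 11.0% of all genes.

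In the 250 bases before and 50 after the start, CCGGAAG, the core of ETS factor motifs, was found on either strand in 26 of the 63 genes (41.3%) and in 9.93% of all genes. The GC box GGGCGG was found in 39 of 63 (61.9%) and in 38.2% of all genes. AAGATGGC, a core of the YY1 motif, was found in 6 of 63 (9.52%) and in 3.19% of all genes. These are matches of letters and not measured sites.

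Ribosomal protein genes were abundant nearly without exception. Of the 83, 80 reached 1 TPM in each of the libraries, while 42.1% of all nuclear protein-coding genes did. Their median was 189 ± 9.09 TPM (SD, n = 3), and 76 of them stood in the top 10% of the 9604 protein-coding genes averaging 1 TPM or more (expressed genes in what follows), whose median was 9.33 ± 1.38 TPM. The level depends on the scale, since nuclear protein-coding genes held 29.6%, 40.4% and 34.8% of deposited TPM in replicates 1, 2 and 3. The members' median was 549 TPM when rescaled to those genes and 80.5 TPM in a second, read-based table described further on. In that table nuclear protein-coding genes held only 20.5%, 21.4% and 7.95% of TPM. With both tables rescaled to those genes, the median log2 ratio of read-based to gene table over members was -0.09. The small subunit had a median of 216 ± 16.8 TPM and the large subunit 168 ± 14.8 TPM. The members held 1.46%, 1.08% and 1.43% of nuclear protein-coding counts in replicates 1, 2 and 3, with exact 95% Clopper-Pearson intervals of 1.458 to 1.465%, 1.072 to 1.081% and 1.429 to 1.436% that cover counting error only.

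**Figure D2:**
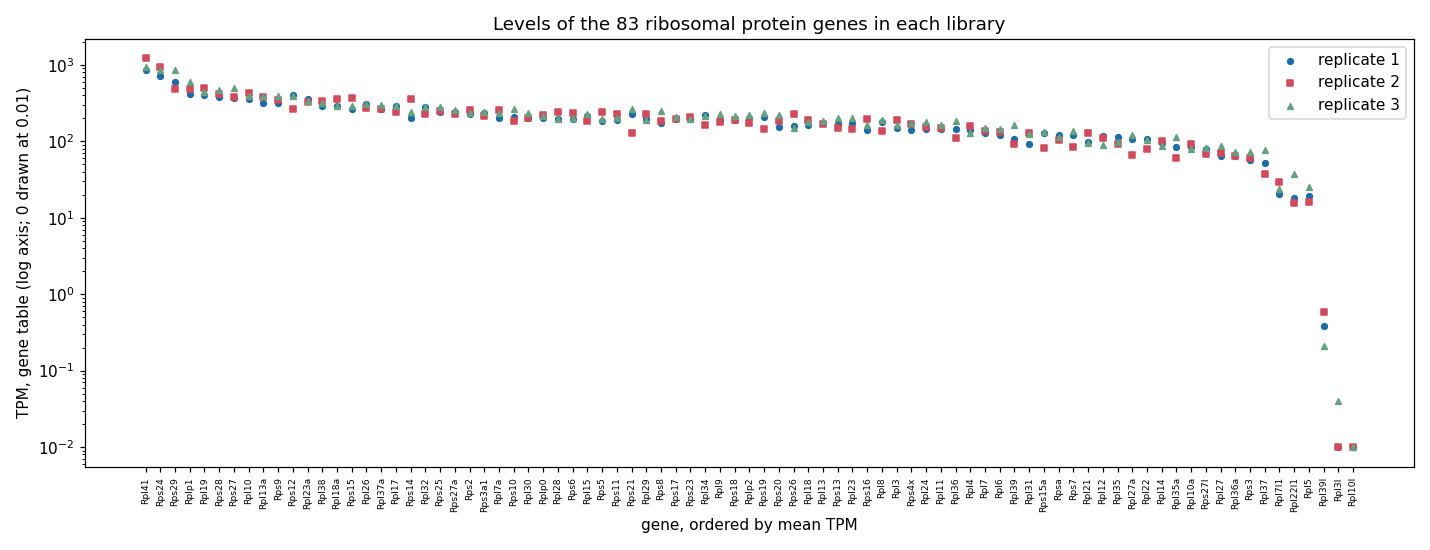
TPM of each of the 83 genes (y axis, log scale, 0 drawn at 0.01) in replicates 1, 2 and 3, ordered by mean TPM along the x axis. The order runs from Rpl41 (mean 1003 TPM) to Rpl5 (20.4 TPM), and Rpl39l, Rpl3l and Rpl10l lie below 1 TPM.

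Within the small subunit, Rps24, whose human counterpart is mutated in some cases of Diamond-Blackfan anaemia, led with 719, 935 and 846 TPM in replicates 1, 2 and 3. Rps29 had 601, 490 and 854 TPM, with replicate 2 the lowest. Rps28 had 427 ± 45.3 TPM, Rps27 418 ± 76.0 TPM and Rps9 353 ± 36.6 TPM. Rps6, the substrate of S6 kinase, had 195, 234 and 199 TPM, close to the median of the members. Rps27a, which is made as a fusion with ubiquitin, had 245 ± 16.5 TPM and Rps19 195 ± 44.1 TPM. Rps4x, whose relative Rps4l was left out above, had 162 ± 16.4 TPM. Rpsa, also known as the laminin receptor precursor, had 123, 106 and 114 TPM. Rps3, which also acts outside the ribosome as a binding partner of NF-kappa B subunits, was the lowest of the small subunit at 57.5, 60.5 and 72.9 TPM.

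Within the large subunit, Rpl41, the shortest ribosomal protein, had 856, 1221 and 933 TPM in replicates 1, 2 and 3 and stood above Rps24 in each. Rpl19 had 448 ± 46.0 TPM and Rpl10, which completes the late large subunit, 393 ± 36.4 TPM. Rpl13a, known from the interferon-activated inhibitor of translation (GAIT) complex of human monocytic cells, had 314, 380 and 395 TPM. Rpl38, which in mouse development is needed for translation of Hox messenger RNAs, had 315 ± 21.1 TPM. Rpl11, which with Rpl5 and 5S ribosomal RNA binds Mdm2, had 146, 150 and 163 TPM. Its partner Rpl5 was the lowest non-paralogue member at 19.6, 15.97 and 25.6 TPM.

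Of the stalk proteins, which recruit the elongation factors, Rplp1 had 422, 486 and 606 TPM, Rplp0 211 ± 8.94 TPM and Rplp2 199, 171 and 223 TPM. Rplp1 was above the other two stalk genes in each library.

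Each paralogue was below its partner. Rps27l, a p53 target in human cells, had 76.7 ± 7.12 TPM against 418 ± 76.0 for Rps27. Rpl7l1 had 24.5 ± 4.30 TPM against 138 ± 10.01 for Rpl7. Rpl22l1 had 18.04, 15.7 and 37.2 TPM against 108, 78.4 and 105 for Rpl22. Rpl39l, a testis form, had 20, 9 and 6 counts against 3815, 946 and 4398 for Rpl39. Rpl3l, a form of striated muscle, had 0, 0 and 3 counts, while Rpl3 had 166 ± 20.1 TPM. Rpl10l, an intronless testis form, had no counts. A count of 0 leaves room for 0.0541, 0.141 and 0.0658 counts per 1000000 total counts in replicates 1, 2 and 3, by counting error only.

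The ratio of the 90th to the 10th percentile of the 80 members was 4.82 ± 0.67 (SD, n = 3), and 60 of the 80 lay within 2-fold of their median. Of 79 pairs of neighbours in the order of mean TPM, 7 differed by more than the SD of their difference over libraries, among them Rpl41 over Rps24, Rps29 over Rplp1, and Rpl10 over Rpl13a. The remaining 72 pairs of neighbours did not differ beyond their spread. Neighbours are the closest pairs of an order, and of all 3160 pairs of members 2635 (83.4%) were apart. Spearman rank correlations of member TPM between libraries were 0.916 (replicates 1 and 2), 0.975 (1 and 3) and 0.897 (2 and 3). Counts per kilobase of annotated length, which leave out the authors' effective lengths, put Rps24 first and Rpl41 second. The rank correlation of this order with that by TPM was 0.948, but some genes moved far. Rps27 went from place 7 to 23 and Rpl38 from 13 to 40, so the 10 highest depend on the length used.

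Ribosomal protein genes held a smaller share of nuclear protein-coding counts in replicate 2 than in the others, and the difference ran across nearly the whole family. In CPM, here counts per 1000000 nuclear protein-coding counts, 78 of 80 members were below the mean of replicates 1 and 3, where 53.2% of all expressed protein-coding genes were, and 77 were lowest in replicate 2, against 34.9% of those genes. As a median log2 ratio to replicates 1 and 3 together, replicate 2 stood at -0.51 over members and -0.02 over all expressed protein-coding genes. For replicates 1 and 3 the members' medians were 0.22 and 0.19. Replicate 2 is 1 library, so this is a difference between libraries and not between conditions.

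The scale mattered for this value. In TPM as deposited the members' median was -0.09 and that of all genes 0.33, a shift of all genes, so the members were again lower relative to them. Gene length moved with the ratio. Members had a median annotated length of 692 bases, against 2528 bases for other expressed protein-coding genes. Among genes under 500 bases the median log2 ratio of replicate 2 was -0.66 for 12 members and -0.39 for 72 other genes. At 500 to 750 bases it was -0.53 for 33 members and -0.27 for 273 other genes, and at 1000 to 2000 bases -0.38 for 11 members and -0.10 for 2597 other genes. For replicates 1 and 3, genes under 500 bases had medians of 0.19 and 0.48 in members and 0.07 and 0.26 in other genes. Annotated length less the authors' effective length also differed between libraries. Its median over members was 222.5, 232.7 and 201.5 bases in replicates 1, 2 and 3. The part of gene length, or of this library difference, in the result was not tested beyond these values.

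Among the 80 members averaging 1 TPM or more, the highest ratio of the highest to the lowest library was that of Rpl22l1, with 11.2, 6.69 and 20.1 CPM in replicates 1, 2 and 3. Rps21 had 75.6, 28.9 and 81.3 CPM, Rpl37 59.9, 30.7 and 76.3 CPM, Rplp2 131, 60.0 and 146 CPM, and Rps29 194, 107 and 260 CPM. In each of these 5 genes replicate 2 was the lowest. Rpl41, in contrast, had 378, 365 and 377 CPM and Rps24 667, 599 and 666 CPM. Rps14 alone was highest in replicate 2, at 143, 180 and 154 CPM.

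One dispersion estimated over the members gave a biological coefficient of variation (the relative spread between libraries beyond counting error) of 0.252, against 0.18 over all protein-coding genes. Without replicate 2 it was 0.121 for the members and 0.184 for all genes, so the members' larger value rests on that library. The gene-wise estimate with edgeR's default shrinkage had a median of 0.171 in the members and 0.166 in all protein-coding genes, but in simulated data it returned 0.222 for genes made with 0.6, while the dispersion over a list returned 0.577.

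**Figure D3:**
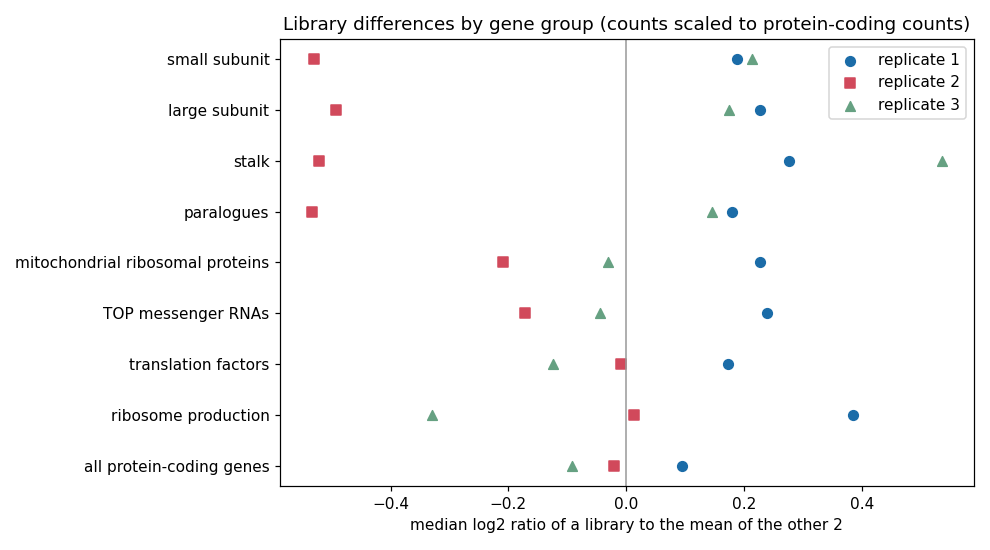
Median log2 ratio of a library to the average of the other 2 (x axis, counts scaled to nuclear protein-coding counts) for groups of genes (y axis). Replicate 2 lies near -0.5 in every group of cytosolic ribosomal proteins, at -0.21 in mitochondrial ribosomal proteins and near 0 in translation factors.

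Genes of the same machinery outside the symbol rule were set beside the members. By the same measure 53.2% of all expressed protein-coding genes were lower in replicate 2. Of 78 mitochondrial ribosomal protein genes, 63 were lower in replicate 2 (median -0.21), and their level was 13.2 ± 0.92 TPM. Protein-coding genes outside the members had medians of -0.27 at 500 to 750 bases and -0.20 at 750 to 1000 bases. The lists were not matched for length. Of 15 TOP messenger RNAs outside the ribosome 12 were lower (median -0.17), with the largest fall in Tpt1 at 821, 508 and 853 CPM. Most genes of this list, Eef1a1 included, are also among the translation factors that follow, so these lists are not independent. Of 30 translation factors 16 were lower (median -0.01), and the elongation factor Eef1a1 had 2648, 2826 and 2752 CPM. Of 16 ribosome production factors 6 were lower (median 0.01).

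The authors deposited a second transcript table made from the reads rather than from an alignment, and its estimated counts were summed per gene. The tables gave nearly the same values for most members, but 4 were at least 2-fold lower in the read-based table in every library and 0 were higher, of 81 tested. Of all protein-coding genes 0.318% were lower and 0.763% higher by this rule. Rpl12 had 298, 99 and 145 counts in the read-based table, against 8026, 2031 and 5054 in the gene table. Rps12 had 550, 253 and 483 read-based counts, against 12239, 2132 and 9164. Rpl10 had 3853, 1587 and 3305 read-based counts, against 18736, 6592 and 15583. Rpl5 had 698, 175 and 527 read-based counts, against 2820, 701 and 2930. The next was Rpl27a, with a mean log2 ratio of -0.52 ± 0.11 (SD, n = 3), and the largest positive ratios were those of Rpl35a (0.27 ± 0.16), Rpl23 (0.26 ± 0.11), Rpl7l1 (0.23 ± 0.07), Rpsa (0.22 ± 0.24) and Rpl13a (0.16 ± 0.02). For Rpsa the SD over libraries exceeded the ratio.

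Near-identical copies of the members were then sought among the annotated transcripts, at 95% identity or more over at least 100 bases and at least 50% of the copy. This rule was chosen after the counts had been seen. It found 632 copies of 79 members, of which 606 were processed pseudogenes, and Rpl21 had the most with 61. Summed over the 3 libraries, only 18 copies held 1000 counts or more in either table, and 13 of these were identical to the member over the aligned part.

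Rpl10-ps3 (chromosome 9, 50344201 to 50344968), identical to Rpl10 over 740 bases, had 16560, 6148 and 13935 read-based counts, against 831, 207 and 640 in the gene table. Rps12-ps3 (chromosome 19, 59322290 to 59322783), identical to Rps12 over 494 bases, had 12261, 1604 and 9276 read-based counts, against 158, 25 and 236. Gm10275 (chromosome 10, 29698746 to 29699380), identical to Rpl12 over 634 bases, had 9142, 2666 and 5941 read-based counts, against 731, 159 and 387. In these 3 pairs the counts stood on the copy in the read-based table and on the gene in the other.

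Rpl5 differed from them, since its copy held most counts in both tables. Gm15500 (chromosome 7, 114705217 to 114706235), identical to Rpl5 over 1018 bases, had 10312, 4304 and 7862 read-based counts, against 7469, 3067 and 4788 in the gene table. Copies held 94.1% of the summed counts of Rpl5 and its copies in the read-based table and 70.4% in the gene table. With its copies Rpl5 reached 196 CPM in the read-based table and 199 CPM in the gene table, so its place as the lowest non-paralogue member depends on how reads were divided.

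Rpl41 went the other way. Gm10076, annotated as a lincRNA (chromosome 14, 105681828 to 105682211), matched Rpl41 at 98.96% over 383 aligned bases, with 1 gap and the substitutions C172T and G279A, counted from the 5′ end of the Rpl41 transcript, the Rpl41 base first. It had 13, 3 and 11 read-based counts, against 6036, 1261 and 3237 in the gene table. The letters around the first substitution (positions 157 to 186) are shown, with the differing base in capitals.
Rpl41: ccaagtaagccagccCgtgcacctacgacg
Gm10076: ccaagtaagccagccTgtgcacctacgacg

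With copies added to each member, none of the 80 members differed 2-fold between tables in counts, against 4 without, and 79 lay within 0.25 on the log2 scale, against 69. The largest remaining mean difference was that of Rpl35a at 0.33. Adding copies joins counts whichever way they were divided, and the origin of the reads was not tested.

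**Figure D4:**
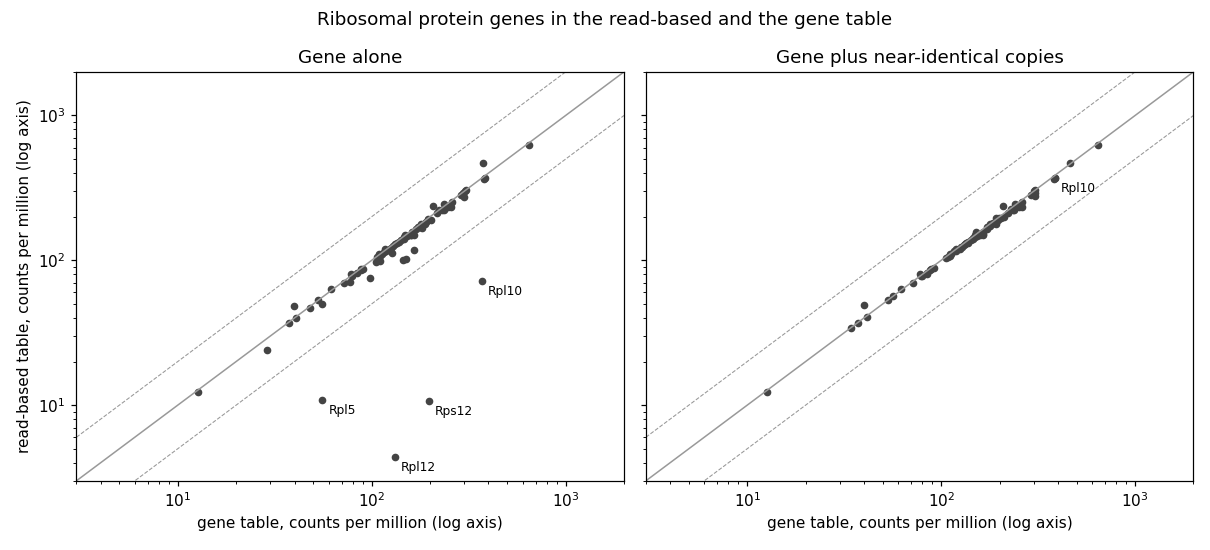
Mean CPM of 80 members in the read-based table (y axis, log scale) against the gene table (x axis, log scale), for the gene alone (left) and the gene plus its near-identical copies (right); the solid line marks equality and the dashed lines 2-fold. Rpl10, Rpl12, Rps12 and Rpl5 lie below the lower dashed line alone, and no member does with copies.

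Most member counts fell on protein-coding transcripts. In the read-based table, transcripts of other types held 7.98%, 8.16% and 7.20% of member counts in replicates 1, 2 and 3, and 5.01 ± 1.18% over all nuclear protein-coding genes. Transcripts marked for nonsense-mediated decay held a mean of 3.27% and retained introns 3.18%. The share was uneven, with a median of 0.76% over members and high values in Rps16 (83.3, 92.6 and 86.9%), Rpl12 (77.8%), Rpl13a (63.4%), Rpsa (62.7%) and Rps20 (58.1%). In Rpl12 and Rps16 copies held 97.3% and 26.4% of the read-based counts of gene and copies together. Of the 80 members, 30 hold snoRNA genes, 58 in all, on the same strand. In those 30 genes the share was 14.7, 15.6 and 14.8%, against 3.64, 3.43 and 2.48% in the other 50. Whether reads of snoRNA precursors enter this share was not tested.

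Rps24 was split between a pair of transcripts. Rps24-210, of 1613 bases, held 52.4 ± 1.77% of read-based counts and 57.4 ± 2.28% of gene-table counts, and Rps24-201, of 468 bases, held 43.8 ± 1.80% and 38.6 ± 2.72% (SD, n = 3). Both tables thus put more counts on the longer transcript in each library. These counts are not divided by transcript length. Per base of annotated length, the shorter Rps24-201 held more counts than Rps24-210 in both tables and in each library. For Rpl41 the tables differed, since Rpl41-203 held 31.3, 63.7 and 39.1% of the read-based counts in replicates 1, 2 and 3, against 79.4, 84.8 and 82.3% in the transcript table that goes with the gene table.

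**Figure D5:**
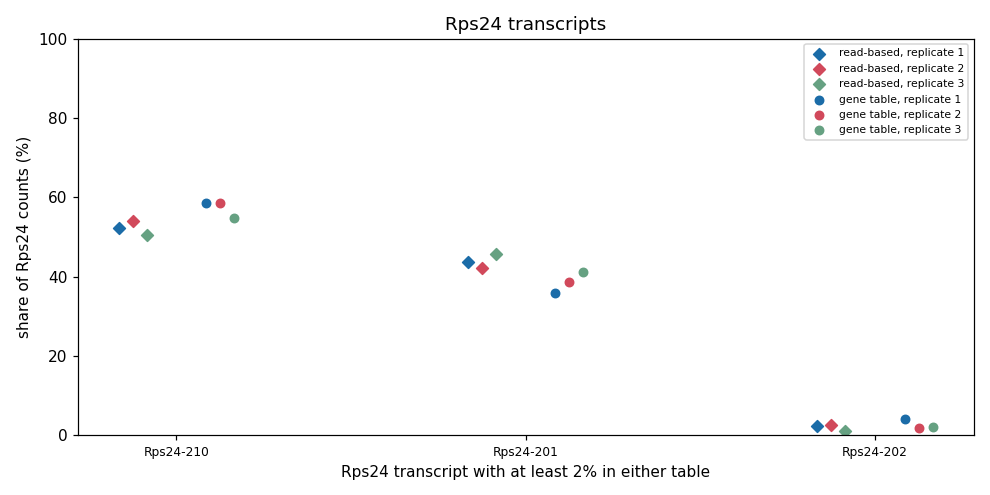
Share of Rps24 counts (y axis, %) on each transcript with at least 2% in either table (x axis), for the read-based table (diamonds) and the gene table (circles), with replicates by colour. Rps24-210 and Rps24-201 hold nearly all counts in each library and table.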

How the data were processed

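Each library has, per the file headers, a gene table and its transcript table, in which the authors gave expected counts, TPM and credibility bounds of TPM (a signal, not used for results). A further deposited transcript table holds estimated counts and TPM. Per the deposited descriptions, the build is mm10 with GENCODE M21. Which programs were used, and whether counting used strand, is not given in the sources used here. Genes with near-identical copies are uncertain.

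The members and lists were chosen with earlier results of these data known. CPM are counts per 1000000 nuclear protein-coding counts. The log2 ratios used an offset of 0.1 CPM. Tables were compared as TPM rescaled to nuclear protein-coding genes with a pseudocount of 1, which understates ratios of low genes. Named genes followed a fixed rule: the highest 10 by TPM, those below 1 TPM, the 5 widest ranges between libraries, the 5 largest differences between tables in each direction, the 5 largest shares on other transcripts, paralogues, stalk genes and genes with known further roles. Rps14, Rpl21 and the named copies were singled out after their values were seen. One further gene list is not reported here.

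Dispersions came from edgeR 4.0.16 in R 4.3.3, on expected counts rounded to whole numbers (TMM, package filter). The planned gene-wise estimate was tested on simulated data with real means and library sizes: genes made with 0.2 gave 0.211 and 191 genes made with 0.6 gave 0.222, so it could not separate them there. One dispersion over a list gave 0.2 and 0.577, and was added after that failure was seen. DESeq2 1.42.0 was an alternative. Copies were found with blastn 2.17.0. Tables were handled with pandas 2.3.3 and numpy 2.4.6 in Python 3.11.15, intervals with scipy 1.17.1 and plots with matplotlib 3.10.9. Start sequences are RefSeq's.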

Additional observations from a re-analysis of the deposited data

How the results depend on the processing

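Of 68 recomputed values of 8 results, 44 kept their value within the spread between libraries, or within 1.5 times for counts of genes, 24 moved further and 0 reversed. The count of members at or above 1 TPM stayed at 79 to 81. The median level was 80.5 TPM in the read-based table and 549 TPM when TPM were rescaled to nuclear protein-coding genes, and the members' share was 5.12% of TPM in place of counts. The 90th to 10th percentile ratio was 5.60 over all members with an offset of 0.1. The median log2 ratio of replicate 2 was -0.496 with TMM, -0.483 with DESeq2 size factors, -0.089 in TPM as deposited, -0.414 in rescaled TPM, -0.494 in read-based counts and -0.493 over all members, and lay between -0.517 and -0.493 against 1 other library alone. The spread used for this ratio was the SD of those last 2 values.

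The count of members 2-fold apart between tables was 4 with TPM as deposited, other pseudocounts and filters, scaled counts, or any 1 replicate left out. With copies added it was 0 for the aligned share of the copy, 0 for that of the shorter transcript and 1 (Rpl5) for that of the member transcript, the form tried first. All 3 forms were chosen after seeing the data, as were the estimates of spread that follow. The coefficient of variation of members was 0.171 as planned and 0.151 to 0.174 with 1 replicate left out. It was 0.252 as 1 dispersion over the list (0.336, 0.121 and 0.259 without replicates 1, 2 and 3), 0.203 gene-wise with hardly any shrinkage and 0.206 as SD over mean. The planned estimate failed on simulated data, so its stability shows nothing about the members. The share on transcripts that are not protein-coding was 6.61% in the transcript table of the gene table and 0.761% as a median over members.

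No paired analysis was possible because there was 1 group. With 1 group of 3 libraries from 1 donor entry nothing here tests the treatment. Replicate 2, in which the members were low, is also the shallowest library.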
